A study of Mus musculus with 30 samples.

Results

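A set of 8 genes that mark subfields of the hippocampus were followed through whole-hippocampus RNA of 30 mice. They were taken by gene symbol from the deposited table, 4 as markers of dentate gyrus granule neurons (Prox1, C1ql2, Dsp and Calb1) and 4 as markers of the pyramidal neurons of the CA fields (Wfs1, Fibcd1, Spink8 and Neurod6). These 8 genes, of 20227 gene symbols in all, had 15 of the 46109 transcript rows. The mice were 15 months old and there were 6 on each of 5 diets, ChowCR, 5% P, 10% P, 15% P and Chow, with 3 males and 3 females on each. By the series title, CR is read here as caloric restriction of chow-fed mice and P as the protein content of low protein, high carbohydrate diets, and Chow is the control diet. Strain, genotype and the composition of the diets are not given in the sources used here, and each mouse is described as a biological replicate.

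The hippocampal circuit runs from the granule neurons of the dentate gyrus through their mossy fibres to the pyramidal neurons of CA3 and on to those of CA1. Granule and pyramidal neurons each switch on genes that the other type uses little, so such genes serve as labels of the subfields in sections and dissected tissue. Prox1 is the homeobox factor that sets and keeps granule neuron identity, C1ql2 is a secreted C1q-like protein of mossy fibre synapses, Dsp encodes desmoplakin, a linker protein of desmosomes, and Calb1 encodes the calcium buffer calbindin. Wfs1 encodes wolframin, a membrane protein of the endoplasmic reticulum, Fibcd1 a membrane receptor that binds acetylated sugars, Spink8 a Kazal-type protease inhibitor, and Neurod6 a basic helix-loop-helix factor of pyramidal neurons. Neurod6 and Calb1 are also used by neurons of the neocortex, and Calb1 by interneurons and striatal neurons as well. These are not the only such uses, and how strictly each gene is confined to its subfield was not tested here. In RNA of the whole tissue, fewer cells of a type and less RNA per cell cannot be told apart.

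Prox1 and Neurod6 carry 2 of the patterns described here, and the sequences around their start sites are shown for that reason: Prox1 was listed by transcripts that begin at different sites, and Neurod6 was the most abundant of the 8. The sequences are RefSeq windows of GRCm38.p6, each 300 bases long on the minus strand and read 5′ to 3′. Capitals mark the letters CANNTG, the E-box core that basic helix-loop-helix factors such as the Neurod family can bind. It reads the same in form on both strands, so one search covers both.
Prox1 upstream start, chr1:190170778-190171077: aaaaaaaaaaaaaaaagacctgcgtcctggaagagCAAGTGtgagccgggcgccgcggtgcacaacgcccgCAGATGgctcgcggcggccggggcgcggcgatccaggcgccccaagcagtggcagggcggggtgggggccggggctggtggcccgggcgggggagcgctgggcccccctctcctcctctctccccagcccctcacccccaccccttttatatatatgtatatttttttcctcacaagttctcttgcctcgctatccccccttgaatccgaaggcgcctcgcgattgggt
Prox1 downstream start, chr1:190169466-190169765: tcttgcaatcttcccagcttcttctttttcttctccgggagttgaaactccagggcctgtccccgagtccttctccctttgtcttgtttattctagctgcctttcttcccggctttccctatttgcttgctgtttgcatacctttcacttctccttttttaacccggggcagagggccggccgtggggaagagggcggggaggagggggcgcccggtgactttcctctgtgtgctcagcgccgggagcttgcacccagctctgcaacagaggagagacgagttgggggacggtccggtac
Neurod6, chr6:55681214-55681513: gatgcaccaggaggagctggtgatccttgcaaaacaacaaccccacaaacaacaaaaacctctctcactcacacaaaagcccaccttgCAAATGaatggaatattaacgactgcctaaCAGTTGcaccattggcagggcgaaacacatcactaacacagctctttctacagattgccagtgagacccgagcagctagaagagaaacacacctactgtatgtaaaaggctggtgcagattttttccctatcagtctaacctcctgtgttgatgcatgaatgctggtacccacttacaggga
The windows follow RefSeq's own start sites. The starts of the 3 Prox1 transcripts in the GENCODE annotation, at 190170714, 190170680 and 190169399, lie just past them in the direction of transcription. The upstream Prox1 window held 2 matches, the downstream window 0 and the Neurod6 window 2. CANNTG occurred in 72.3 percent of the 32851 RefSeq promoter windows of the same length, so a match is common, and these matches are a description of the letters and not of binding. The Neurod6 window had a GC content of 46.3 percent, against 64.3 percent and 57.3 percent in the Prox1 windows.

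Levels are in FPKM, a unit that divides out length and sequencing yield, so that genes can be set beside each other. The depth is unknown. Each library listed between 19681 and 21853 transcripts, and between 2469 and 2765 of them at exactly 0. A transcript that a library does not list has no value there, which is not the same as 0. In the tests, the transcripts of a symbol were summed, unlisted ones counted as 0, and the 8130 symbols with a mean of at least 1 FPKM were kept.

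One control library stood apart on these genes before any diet was compared. In Chow replicate 1, from a male, Prox1, C1ql2, Fibcd1 and Spink8 were not listed, and Neurod6 was at 21.3 FPKM, against 38.7 to 84.2 FPKM in the other 29 libraries. The 4 CA markers summed to 39.3 FPKM in Chow replicate 1 and to between 88.4 and 145.9 FPKM in the others. Calb1, at 19.9 FPKM, and Wfs1, at 18.1 FPKM, lay inside the range of the other libraries. Some further hippocampal lists went the same way. The 6 other CA1 genes summed to 10.4 FPKM (12.1 to 68.0 in the others), and 5 genes of young granule neurons to 2.31 FPKM (12.4 to 47.1). In each of these lists 1 gene was below every other library, Man1a and Calb2. The sums of other lists lay inside the range. The 8 other dentate granule genes summed to 47.2 FPKM (45.2 to 93.6), near the lower end, with 1 library lower. The 4 mossy cell genes summed to 575.9 FPKM (33.8 to 746.8), of which Glul gave 534.2 FPKM. Among these, Calb2, which stands on both this list and that of young granule neurons, was below every other library. Gria3, at 41.8 FPKM, was above every other library (at most 36.9). The 3 dentate markers with values summed to 19.9 FPKM, all of it Calb1 (9.04 to 66.7).

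The striatal and neocortical lists summed high in the same library. The 4 genes tested for thalamus and habenula summed to 0.383 FPKM, below the 0.537 to 44.3 FPKM of the others. The 5 striatal genes tested summed to 131.5 FPKM in Chow replicate 1, against 7.90 to 58.5 FPKM in the others, and several of them were above every other library, among them Ppp1r1b (DARPP-32, a phosphatase inhibitor of dopamine-responsive neurons) at 69.7 FPKM against at most 26.6, Rgs9 at 20.3 against at most 4.14 and Pde10a at 18.1 against at most 10.2. Penk was not, at 0.372 FPKM against at most 20.8. The 7 neocortical and subicular genes tested summed to 192.7 FPKM, against 36.9 to 101.5. Among them Lamp5 was at 123.0 FPKM, against 8.78 to 42.5, Tbr1 at 29.2 against at most 18.97, and Mef2c at 23.3 against at most 23.1. Rasgrf2, at 7.11 FPKM, lay inside the range and above the median of the others (4.06). Fezf2, at 0 or unlisted, Nr4a2, at 8.62 FPKM, and Fn1, at 1.47 FPKM, lay below that median (0.947, 15.4 and 5.02). Genes of glutamatergic neurons at large also summed highest there, at 2756 FPKM against 1269 to 2492, but as single genes they were mixed. Nrgn was at 791.5 FPKM, against at most 576.0 and a median of 0 in the other 29 libraries, unlisted values counted as 0. Snap25 was at 1034 FPKM against at most 760.3, and Rbfox3 at 39.1 against at most 37.7. Syt1, at 112.8 FPKM, was below every other library (137.9 to 230.5), and Camk2a, Slc17a7 and Tubb3 lay inside the range. The 7 other CA2 and CA3 genes were mixed. They summed to 319.3 FPKM, inside the 151.2 to 385.7 of the others, of which Pcp4, which the neocortex and striatum also use, gave 279.1 FPKM. In this list Nnat, Homer3 and Grp were below every other library and Pcp4 above every other. The summed oligodendrocyte, astrocyte, microglial and endothelial genes of this library lay within the range of the other 29. Over all 8130 symbols, Chow replicate 1 held the lowest value for 377 and the highest for 503, against 99 to 212 and 131 to 416 in the other libraries. Several results that rest on Chow are therefore given with and without it, and the others include it. The part of these genes in each result was not tested.

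**Figure D1:**
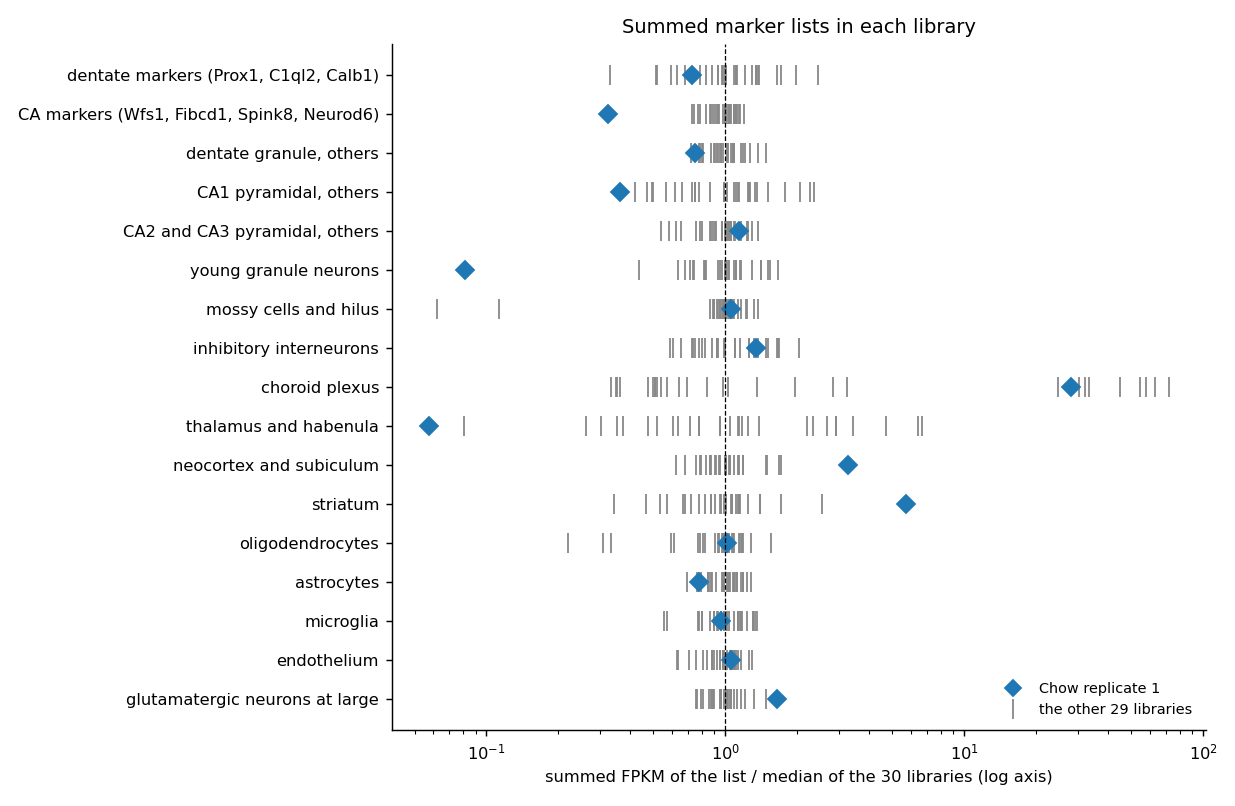
Summed FPKM of each marker list in each of the 30 libraries, divided by the median library (log axis). Blue diamonds are Chow replicate 1 and grey ticks the other 29. Chow replicate 1 lies below all others for the CA markers, the other CA1 genes, the young granule neuron genes and the thalamus and habenula list, at 39.3, 10.4, 2.31 and 0.383 FPKM, and above all others for the striatal, neocortical and glutamatergic lists, at 131.5, 192.7 and 2756 FPKM.

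Among the dentate markers, Prox1 (chromosome 1, 190118035 to 190170714, minus strand of GRCm38) was listed in 25 of 30 libraries, at 2.68 to 10.5 FPKM with a median of 7.81 FPKM. It had 5.16, 7.88 and 8.44 FPKM as lowest, median and highest value in the 6 ChowCR libraries and 2.68, 6.73 and 10.5 FPKM in the 6 5% P libraries. In 10% P it was listed in 5 libraries, at 5.14, 7.17 and 9.83 FPKM, and in 15% P in 3, at 4.68, 8.66 and 8.97 FPKM. In Chow it was listed in 5, at 5.32, 8.68 and 10.1 FPKM. The listed values overlapped between all 5 diets, and 15% P had the fewest libraries that listed the gene, a difference in listing that was not tested.

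The 3 protein-coding Prox1 transcripts alternated between libraries. The transcript from the downstream start, ENSMUST00000010319.11, was listed in 9 libraries, and the 2 from the upstream start, ENSMUST00000175916.5 and ENSMUST00000177288.3, in 14 and 15. In 13 libraries 1 of the 3 was listed, in 11 libraries 2, in 1 library all 3, and in 5 none. The 5 libraries without Prox1 were Chow replicate 1, 10% P replicate 3 and 15% P replicates 3, 4 and 6. An antisense gene, Prox1os, overlaps the start of Prox1, and since the strand setting of the quantification is not given, reads of the pair may be mixed.

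C1ql2 (chromosome 1, 120340582 to 120343174, plus strand) had 1 transcript, which was listed at 0 in 18 libraries, above 0 in 11 and not listed in 1. Where it was above 0 it spanned 2.09 to 47.5 FPKM. It was at 8.91 and 47.5 FPKM in 2 ChowCR libraries, at 29.01 and 13.9 FPKM in 2 5% P libraries, at 16.0 and 19.7 FPKM in 2 10% P libraries, and at 21.1, 14.6 and 19.1 FPKM in 3 15% P libraries. In Chow it was at 5.72 and 2.09 FPKM in 2 libraries. An exact 0 in such a table can be a failed estimate, so C1ql2 is described by where it was listed above 0. The values above 0 in Chow were lower than every value above 0 in the other 4 diets, which rests on 2 libraries and was not tested. With the zeros kept, the diets overlapped, since each held libraries at 0.

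Dsp (chromosome 13, 38151294 to 38198577, plus strand) had a single row, ENSMUST00000145151.1, a processed transcript without a coding sequence. No library gave it a value, so desmoplakin could not be followed here and 7 of the 8 genes entered the tests.

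Calb1 (chromosome 4, 15881264 to 15908064, plus strand) was listed in all 30 libraries, at 16.9 ± 7.17 FPKM (SD, n = 30), nearly all of it in its coding transcript ENSMUST00000029876.1. Its lowest, median and highest values were 9.06, 18.7 and 22.3 FPKM in ChowCR, 8.94, 20.5 and 38.1 FPKM in 5% P, 9.97, 19.2 and 25.7 FPKM in 10% P, 7.67, 9.17 and 22.9 FPKM in 15% P, and 9.53, 14.8 and 21.3 FPKM in Chow. The libraries fell into 2 ranges with no value between them, 12 libraries at 11.2 FPKM or less and 18 at 17.6 FPKM or more. The lower range held 2 ChowCR, 1 5% P, 2 10% P, 4 15% P and 3 Chow libraries, so every diet had libraries in both. This grouping was seen in the values and was not tested.

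**Figure D2:**
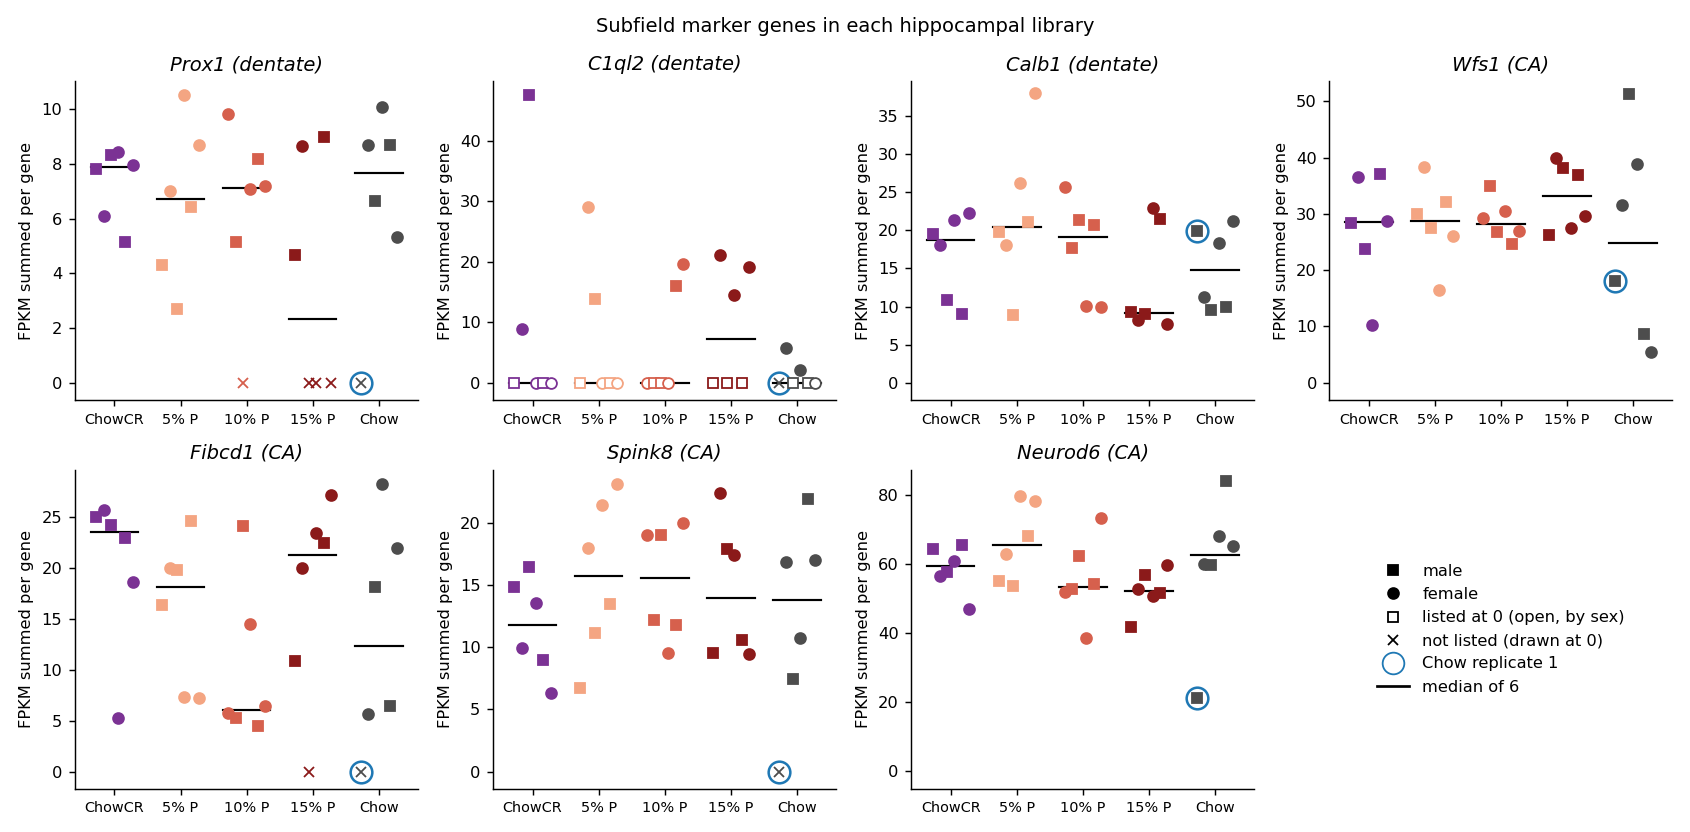
FPKM summed per gene in each library for the 7 markers with values, by diet. Squares are males, circles females, open symbols libraries that list the gene at 0, crosses libraries that do not list it (drawn at 0), bars the median of 6, and the blue ring Chow replicate 1. The diets overlap for every gene, and Calb1 shows 12 libraries at 11.2 FPKM or less and 18 at 17.6 FPKM or more.

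Among the CA markers, Neurod6 (chromosome 6, 55677822 to 55681263, minus strand) had the highest level of the 7 and the smallest spread relative to its mean, at 58.6 ± 12.54 FPKM (SD, n = 30), a coefficient of variation of 21.4 percent. It had 47.0, 59.4 and 65.6 FPKM as lowest, median and highest value in ChowCR, 53.8, 65.7 and 79.7 FPKM in 5% P, 38.7, 53.5 and 73.3 FPKM in 10% P, 41.8, 52.4 and 59.7 FPKM in 15% P, and 21.3, 62.8 and 84.2 FPKM in Chow. Chow held both the lowest and the highest library. Without Chow replicate 1 the coefficient of variation was 17.6 percent.

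Wfs1 (chromosome 5, 36966104 to 36989205, minus strand) was listed in all libraries, at 28.7 ± 9.80 FPKM (SD, n = 30). It had 10.3, 28.6 and 37.02 FPKM as lowest, median and highest value in ChowCR, 16.5, 28.7 and 38.3 FPKM in 5% P, 24.7, 28.1 and 34.9 FPKM in 10% P, 26.2, 33.3 and 39.9 FPKM in 15% P, and 5.44, 24.8 and 51.3 FPKM in Chow. In all, 3 libraries lay at 10.3 FPKM or less, 1 ChowCR and 2 Chow, and the other 27 at 16.5 FPKM or more. The Chow libraries were the most spread, with an SD of 18.01 FPKM against 3.61 to 9.81 FPKM in the other diets.

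Fibcd1 (chromosome 2, 31813290 to 31846005, minus strand) was listed in 28 libraries. It had 5.26, 23.5 and 25.7 FPKM as lowest, median and highest value in ChowCR, 7.23, 18.1 and 24.6 FPKM in 5% P and 4.44, 6.08 and 24.1 FPKM in 10% P. In 15% P it was listed in 5 libraries, at 10.8, 22.5 and 27.1 FPKM, and in Chow in 5, at 5.60, 18.1 and 28.2 FPKM. Its listed values also left a gap, with 9 libraries at 7.33 FPKM or less and 19 at 10.8 FPKM or more. Below the gap were 1 ChowCR, 2 5% P, 4 10% P, 0 15% P and 2 Chow libraries, unlisted libraries left out. This grouping too was seen in the values and was not tested.

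Spink8 (chromosome 9, 109812280 to 109826633, plus strand) was listed in 29 libraries by 2 coding transcripts, both of them in each of the 29. It had 6.36, 11.8 and 16.5 FPKM as lowest, median and highest value in ChowCR, 6.73, 15.7 and 23.2 FPKM in 5% P, 9.52, 15.6 and 19.998 FPKM in 10% P, and 9.44, 13.99 and 22.4 FPKM in 15% P. In Chow it was listed in 5, at 7.49, 16.9 and 21.9 FPKM. Apart from the unlisted library, its values overlapped between all diets.

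By median over the 30 libraries, unlisted ones at 0, the order of levels was Neurod6 (58.8 FPKM), Wfs1 (29.1), Fibcd1 (18.4), Calb1 (18.2), Spink8 (13.5), Prox1 (7.04) and C1ql2 (listed at 0 in most). Neurod6 was above Wfs1 in 30 of 30 libraries, Wfs1 above Fibcd1 in 28, and Spink8 above Prox1 in 28. The neighbours Fibcd1 and Calb1 did not separate, with Fibcd1 higher in 17 of 30, nor did Calb1 and Spink8, with Calb1 higher in 21. Prox1 exceeded C1ql2 in 18, of which 16 listed C1ql2 at 0. Where C1ql2 was above 0 it exceeded Prox1 in 9 of 11 libraries, so these neighbours have no settled order.

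**Figure D3:**
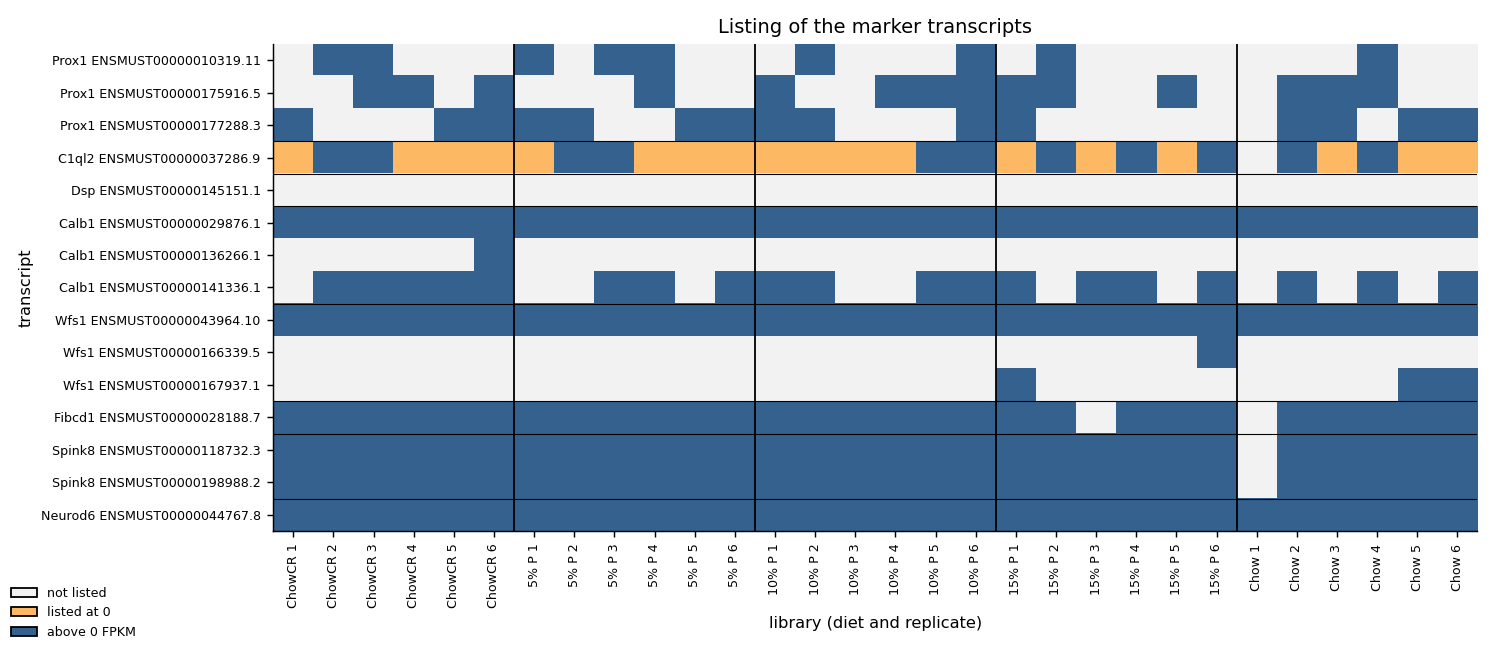
Listing of the 15 marker transcripts (rows) in the 30 libraries (columns, by diet and replicate): not listed (light), listed at 0 (orange) or above 0 FPKM (blue). The 3 Prox1 transcripts alternate, C1ql2 is above 0 in 11 libraries, Dsp is listed in none, and Chow replicate 1 lists neither Prox1, C1ql2, Fibcd1 nor Spink8.

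The first question was whether any of the diets changed these markers relative to Chow. None of the 7 passed in ChowCR, 5% P, 10% P or 15% P against Chow (limma, 0 of 7 in each; over all 56 tests of the markers the smallest adjusted p was 0.86). As the background, of the 8130 symbols tested, limma called 0.0738 percent in ChowCR, 0 percent in 5% P, 0.0246 percent in 10% P and 0.0123 percent in 15% P. In 5% P, where no symbol was called, 422 had an unadjusted p under 0.05. With 0.5 added to each FPKM before the log, changes between low listed levels come out too small, while a library that lists a gene at 0 or not at all enters at the bottom of that scale and can weigh heavily on its difference.

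The intervals show what these data leave room for. For Neurod6 the log2 difference was 0.08 in ChowCR (95% interval -0.36 to 0.51), 0.24 in 5% P (-0.19 to 0.68), -0.02 in 10% P (-0.45 to 0.41) and -0.09 in 15% P (-0.52 to 0.34). For Calb1 it was 0.16, 0.49, 0.21 and -0.26 in the same order, each with a standard error of 0.34. For Wfs1 it was 0.37, 0.48, 0.54 and 0.72, each with a standard error of 0.38, and its 95% interval in 15% P was -0.06 to 1.49 (limma, adjusted p = 0.93). Spink8 was at 0.50, 0.87, 0.89 and 0.79 with a standard error of 0.56. The 3 genes most often unlisted or at 0 had the widest errors. Fibcd1 was at 1.23, 0.90, 0.14 and 0.46 (standard error 0.86), Prox1 at 0.58, 0.35, -0.06 and -1.39 (0.82), and C1ql2 at 0.80, 0.79, 0.73 and 1.61 (1.42).

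Taken as groups, the CA markers lay above Chow by differences that were far smaller without 1 control library. All 4 CA markers had positive log2 differences in ChowCR and 5% P, and 3 of 4 in 10% P and 15% P, with medians of 0.44, 0.67, 0.34 and 0.59. Over all 8130 symbols the medians were 0.02, -0.00, 0.01 and -0.02. Without Chow replicate 1 the CA medians were 0.07, 0.10, -0.09 and -0.15, and 2, 3, 2 and 2 of the 4 were positive. The 3 dentate markers had medians of 0.58, 0.49, 0.21 and -0.26 with it and 0.28, 0.62, 0.33 and -0.14 without it.

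Again 0 of 7 markers passed in any diet when that library was left out. Spink8 and Fibcd1, which Chow replicate 1 does not list, moved by similar amounts. Spink8 moved to log2 differences of -0.28, 0.08, 0.10 and 0.01 in ChowCR, 5% P, 10% P and 15% P, and Fibcd1 to 0.45, 0.12, -0.64 and -0.32. Neurod6 moved to -0.19, -0.03, -0.29 and -0.36 in the same diets (limma, adjusted p = 0.74 in 15% P). Prox1 moved to -2.04 in 15% P (limma, adjusted p = 0.71), the smallest adjusted p of a marker under any alternative. The 3 15% P libraries that do not list Prox1 count as 0 in that value. With zeros and unlisted values taken as missing, an alternative chosen after seeing the data, the Prox1 difference in 15% P was -0.0024 over all libraries, against -1.39 with them as 0, so its size came from where the gene was listed.

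**Figure D4:**
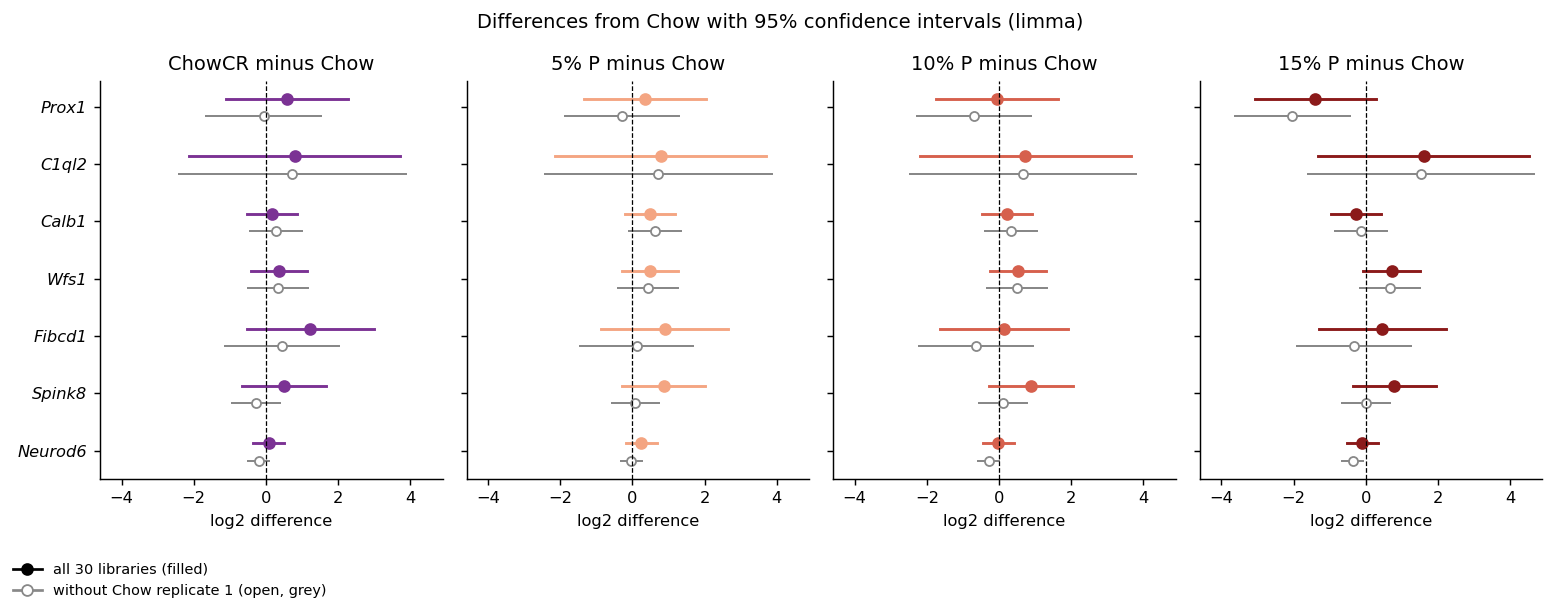
Log2 difference of each marker from Chow, on the log2(FPKM + 0.5) scale, with 95 percent confidence intervals from limma, for all 30 libraries (filled, coloured) and without Chow replicate 1 (open, grey). The intervals of all 7 genes include 0 in all 4 diets with all libraries. Those of Prox1 in 15% P and Neurod6 in 10% P and 15% P, which are not adjusted for the number of symbols, lie below 0 without Chow replicate 1. Spink8 in 10% P is at 0.89 with Chow replicate 1 and at 0.10 without it.

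Diet as a whole, sex and protein content were tested on the same values. No marker passed for a difference between any of the 5 diets (limma F test, 0 of 7, background 0.0123 percent). None passed between male and female (0 of 7, 0.0615 percent) or for a diet effect that differed by sex (0 of 7, 0.0861 percent). Of the 7, 6 had negative male minus female values, ranging on the log2 scale from -1.38 for C1ql2 to -0.12 for Neurod6, and Wfs1 was at 0.15. The males included Chow replicate 1. Across 5% P, 10% P and 15% P, 0 of 7 passed for a trend with protein content (limma, background 0 percent). Neurod6 had the smallest p of the 56 tests made on the markers: it averaged 66.4 ± 11.1, 55.6 ± 11.6 and 52.3 ± 6.15 FPKM in 5% P, 10% P and 15% P (SD, n = 6 each). Its slope was -0.17 log2 units per 5 percentage points of protein, and its standard error was 0.07 (limma, adjusted p = 0.98). Calb1 had a slope of -0.38 and Prox1 of -0.87, both also with an adjusted p of 0.98 in limma. Of the 56 tests on the markers, 1 had an unadjusted p under 0.05.

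Single transcripts could be tested only where all 30 libraries had a value, which held for the main transcripts of Calb1, Wfs1 and Neurod6. None passed in any diet against Chow (limma, 0 of 3). The background among 4447 transcripts was 0.045 percent in ChowCR and 0 percent in 5% P, 10% P and 15% P. The Wfs1 transcript ENSMUST00000043964.10 was at 0.40, 0.51, 0.57 and 0.74 log2 units from Chow in ChowCR, 5% P, 10% P and 15% P, close to the summed gene.

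Other markers of the same cells were set beside the 8. Of 148 symbols in 15 lists, 98 were abundant enough to test in the 4 diets against Chow. The 8 other dentate granule genes, led by Ahcyl2, Stxbp6, Smad3 and Bcl11b, had median log2 differences of 0.07, 0.22, 0.23 and -0.08 in ChowCR, 5% P, 10% P and 15% P, with 0 called. The 6 other CA1 genes, led by Pou3f1, Man1a, Mpped1 and Htr1a, had 0.33, -0.25, -0.07 and 0.22, with 0 called. The 7 other CA2 and CA3 genes, led by Nnat, Pcp4, Bok and Rgs14, had 0.17, -0.21, -0.01 and 0.12, with 0 called. Leaving out Chow replicate 1 gave dentate granule medians of -0.06, 0.09, 0.13 and -0.15, and CA1 medians of 0.05, -0.49, -0.50 and -0.30. The CA2 and CA3 medians became -0.10, -0.51, -0.16 and -0.13, and again 0 were called in each list. The 5 young granule neuron genes, led by Calb2, Dpysl3, Neurod1 and Sox4, were all positive in every diet, with medians of 1.08, 0.97, 0.73 and 0.56, and 0 were called. Without Chow replicate 1 those medians were 0.32, 0.87, 0.53 and 0.10, with 5, 5, 4 and 4 of the 5 positive. Calb2 is on both this list and that of mossy cells, so the list is not specific to young granule neurons.

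Of the lists for other cells and regions, 1 symbol in 1 diet passed. It was the astrocyte glutamate transporter Slc1a3, which rose in 10% P by 2.68 on the log2 scale, its standard error being 0.50 (limma, adjusted p = 0.047). It ranged from 148.2 to 180.7 FPKM in 10% P, against 19.996 to 46.5 FPKM in Chow. The other diets mixed both levels, with 1 ChowCR, 3 5% P and 4 15% P libraries above 100 FPKM and the rest of those diets near the Chow level. The call held in 13 of 42 alternatives and was lost in the others, among them without Chow replicate 1 (limma, adjusted p = 0.095). Its log2 difference was 2.503 to 3.85 over all 42, and 2.503 without that library. The other 7 astrocyte genes tested, and every gene tested in the lists for mossy cells (4), interneurons (8), choroid plexus (8), thalamus and habenula (4), neocortex and subiculum (7), striatum (5), oligodendrocytes (9), microglia (8), endothelium (5) and glutamatergic neurons at large (7), did not pass in limma.

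The next question was whether the markers of one subfield moved together between animals. Over 30 libraries, 1 of 21 pairs passed. Spink8 and Neurod6 had Pearson's r = 0.81 (permutation test with 100000 resamples, adjusted over 21 pairs p = 0.0021) and Spearman's rho = 0.49 (permutation, adjusted p = 0.135). Leaving out the 2 libraries farthest from the median of Spink8, Chow replicate 1 and ChowCR replicate 6, gave r = 0.47. With Chow replicate 1 alone left out, r was 0.51 (permutation, adjusted p = 0.092) and 0 of 21 pairs passed, so the call rests on that library.

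The other pairs were weak. The 3 dentate pairs had r from -0.33 to 0.13, with C1ql2 and Calb1 lowest. The other 5 CA pairs ranged from -0.12 to 0.38, and the 12 pairs of a dentate with a CA marker from -0.22 to 0.38. In the 29 libraries other than Chow replicate 1, Wfs1 had r = -0.34 with both Spink8 and Neurod6, and Fibcd1 had -0.32 with Spink8 (permutation, adjusted p = 0.39 for each), and these negative values did not pass. None of 105 relations of a marker with the mean of one of the 15 lists passed (permutation, adjusted over 105), with all libraries or without Chow replicate 1. Neither the choroid plexus genes, whose sum spanned 37.3 to 8078 FPKM between libraries, nor any other list was tied to a subfield marker at that threshold.

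**Figure D5:**
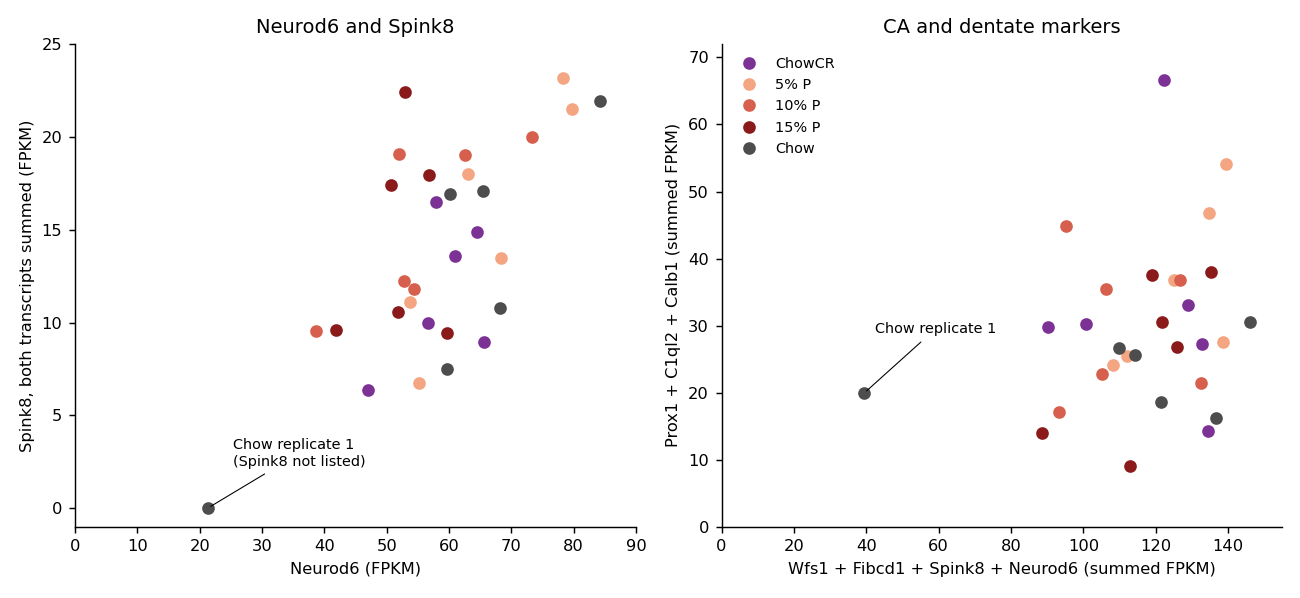
Left: Neurod6 (x axis) against Spink8 (y axis), FPKM, 1 point per library, coloured by diet. Right: summed CA markers (x axis) against summed dentate markers (y axis). Chow replicate 1 lies alone at the lower left of the plot of Neurod6 and Spink8 and at 39.3 FPKM on the x axis of the plot of sums, where the other libraries span 88.4 to 145.9.

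The balance of the subfields in a library was taken as the mean log2 value of Prox1, C1ql2 and Calb1 minus that of the 4 CA markers. It averaged -1.99 ± 0.90 in ChowCR, -2.04 ± 0.66 in 5% P, -2.05 ± 1.34 in 10% P, -2.45 ± 0.59 in 15% P and -1.96 ± 0.77 in Chow (SD, n = 6 each). These 5 means lay within 1 SD of each other. C1ql2, at 0 or unlisted in most libraries, lowered all 5 means but made the score higher in 8 of the 30 libraries. Without it the means were -1.09, -1.12, -1.23, -2.22 and -0.92 in the same order of diets, and the gap between 15% P and Chow was larger than the SD of either (1.06 in 15% P and 0.53 in Chow). The mean was lowest in 15% P both with and without C1ql2. Without C1ql2 the libraries spanned -3.72 to -0.88 in 15% P against -1.63 to 0.01 in Chow. The highest in Chow, at 0.01, was Chow replicate 1, whose CA markers were low or unlisted, and the next was at -0.82. The Chow means include that library. The 3 lowest in 15% P, at -2.45, -3.03 and -3.72, were replicates 3, 4 and 6, which do not list Prox1 and carry it as 0, and the other 3 were at -1.41, -1.82 and -0.88. The ranking of 15% P was not tested.

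Symbols were then ranked by how closely they followed that score over the 30 libraries, after removing the means of diet and sex. Among 8123 symbols that are not markers, those with the highest Pearson r included Dtx3 (0.71), Tmem178 (0.65), Ppp1r2-ps4 (0.62), Ncoa3 (0.61), Wwc1 (0.59), Ctsz (0.59) and Dnajc11 (0.59). Those with the lowest included 1 predicted gene (-0.71), Dtx1 (-0.67), Mkln1 (-0.66), Slk (-0.65), Rab2a (-0.65), Fgf10 (-0.64) and Ppp2r3d (-0.63). These values, with Chow replicate 1 left out, lay between 0.54 and 0.72 and between -0.73 and -0.58. With the 2 libraries of most extreme score left out instead, they lay between 0.45 and 0.59 and between -0.67 and -0.44. The symbols are the extremes of 8123, and their r values carry no test. The list follows C1ql2 in part: with C1ql2 left out of the score, 2 of the 16 extremes were shared, Wwc1 and Ppp2r3d, and Ncoa3 (r = 0.72) and Dtx1 (r = -0.67) were the symbols with the highest and the lowest r to C1ql2 itself, which was at exactly 0 in 18 libraries. None of these symbols was a marker on the 15 lists.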

How the data were processed

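Whole-hippocampus RNA of 30 mice was sequenced from one end with a stranded poly(A) kit, per the labels' protocols. FPKM values, 1 row per transcript and no read counts, are what the authors deposited. The submitters' processing notes name the mm10 build and, without their roles here, DESeq2 1.16.1, featureCounts 1.4.6, StringTie 1.2.4, TopHat2 2.0.14 and bcl2fastq 2.18.0. Values were summed per symbol (unlisted as 0), kept at a mean FPKM of at least 1, and their log2(FPKM + 0.5) went into limma 3.58.1 (R 4.3.3), two-sided, with sex as covariate, all 30 libraries in one fit and Benjamini-Hochberg adjustment over all symbols, at 0.05. The design had foreseen 28 marker pairs, and Dsp left 21. The procedure was tested on simulated data. Coordinates are from GENCODE M21 (GRCm38). No batch or date is labelled. The intervals and tests rest on the spread between animals.

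The markers and the 15 lists were chosen with earlier results of these data known. The rule for named genes took the 8 markers and their transcripts, up to 4 symbols of highest mean per list, the 8 highest and 8 lowest symbols by r to the dentate minus CA score (predicted ones unnamed), and any list gene that passed. Some genes that the rule takes are not reported here. Symbols of Chow replicate 1 and those ranked by Neurod6 were chosen after their values were seen. Alternatives were other pseudocounts, filters, scalings, covariates and each library left out. Chosen after seeing the data were zeros and unlisted values as missing, the score without C1ql2, and the list relations without Chow replicate 1.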

Additional observations from a re-analysis of the deposited data

Results flagged for a closer look

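Among 35 groups of 6 libraries (7 markers in 5 diets), 3 held a library whose gap to its nearest neighbour was above the 95 percent critical value of Dixon's test (0.625 of the group's range), where chance flags about 1 in 20 groups. C1ql2 in ChowCR reached 47.5 FPKM in replicate 3, against 8.91 FPKM in the next library. C1ql2 in Chow reached 5.72 FPKM in replicate 2, against 2.09 FPKM in the next. In both of these C1ql2 groups only 2 of 6 libraries were above 0, so the rate of 1 in 20 does not hold for them. Fibcd1 in ChowCR was at 5.26 FPKM in replicate 4, against 18.6 FPKM in the next, and Wfs1 was also lowest of its diet in that library, at 10.3 FPKM.

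The summed CA markers of Chow were flagged in the same way, at 39.3 FPKM in replicate 1 against 109.9 FPKM in the next library.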

How the results depend on the processing

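No setting called a marker: in 2264 tests of the markers under alternatives the smallest adjusted p was 0.71. Of 1713 alternative log2 differences of the markers, 37 changed sign, none of a called value, and the cause was not tested. Transcripts of highest mean gave Prox1 -0.50 in ChowCR and 0.20 for male minus female. Array weights gave Neurod6 -0.019 in ChowCR and Fibcd1 -0.080 in 10% P, and a Ttr covariate gave C1ql2 a trend of -0.050. Zeros and unlisted values as missing gave Prox1 -0.057 in ChowCR, -0.28 in 5% P and a trend of 0.17, Spink8 -0.28 in ChowCR, and Fibcd1 -0.68 in 10% P, 0.20 by sex and a trend of 0.20.

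Leaving out 1 library at a time changed the sign of 14 differences. Prox1 ranged from -0.062 to 0.81 in ChowCR, -0.29 to 0.59 in 5% P and -0.70 to 0.58 in 10% P. C1ql2 ranged from -0.34 to 1.32 in ChowCR and -0.11 to 1.23 in 10% P. Fibcd1 ranged from -0.64 to 0.47 in 10% P, -0.32 to 1.34 in 15% P and -0.37 to 0.20 for the trend. Spink8 ranged from -0.28 to 0.86 in ChowCR and -0.12 to 0.045 for the trend. Neurod6 ranged from -0.19 to 0.21, -0.028 to 0.38, -0.29 to 0.12 and -0.36 to 0.048 in ChowCR, 5% P, 10% P and 15% P.

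Between 0 and 1 marker pairs passed when 1 library was left out, and r of Spink8 and Neurod6 ranged from 0.51 to 0.83. The mean score moved by over 1 SD without C1ql2 in Chow (-0.92) and 5% P (-1.12), and at a pseudocount of 0.1 in 15% P (-3.14). No paired analysis was possible because the labels give no replicate numbers shared between diets. With no read counts, what depth limits is unknown.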

Other observations

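Neurod6, the most abundant of the markers, had close companions between libraries. This ranking was made after its values were seen, on 8123 symbols, over 30 libraries and after removing the means of diet and sex, and it carries no test. The symbols with the highest r to Neurod6 were the sodium channel subunit Scn3b (0.93), the actin nucleation subunit Arpc5 (0.90), the Ras exchange factor Rasgrf1 (0.89), the death receptor Tnfrsf21 (0.87), the synaptic scaffold Homer3 (0.87), Olfml2b (0.86), the leucine-rich repeat protein Lrrn2 (0.86) and Ccdc71l (0.85). Without Chow replicate 1, Lrrn2 stood at 0.83, Scn3b at 0.80, Arpc5 at 0.71, Rasgrf1 at 0.67 and Homer3 at 0.59. The values of the other companions without that library are not reported here.

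Chow replicate 1 was the lowest library for Scn3b, Arpc5, Rasgrf1, Lrrn2 and Homer3. Scn3b was at 10.3 FPKM there, against 34.9 to 56.01 FPKM in the other 29, Arpc5 at 17.9 against 43.99 to 68.5, and Rasgrf1 at 79.2 against 115.5 to 159.1. Lrrn2 was not listed there and was at 33.4 to 56.8 FPKM in the others. At the other end, the neocortical gene Lamp5 had r = -0.77 to Neurod6, and -0.43 without Chow replicate 1. The number of symbols with r above 0.7 to Neurod6 was 62 with all libraries and 14 without Chow replicate 1, and to Spink8 it was 55 and 2. For Prox1, C1ql2, Calb1, Wfs1 and Fibcd1 it lay between 0 and 4 with all libraries. For Fibcd1 it was 4 with all libraries and 15 without Chow replicate 1.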
